A study of Mus musculus with 6 samples.

Results

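ZBTB factors are DNA-binding proteins that carry a BTB domain, used to pair with another BTB protein and to hold corepressors, and C2H2 zinc fingers that read the DNA sequence. Several of them bring NCoR, SMRT or BCOR complexes with histone deacetylases to their target genes, and single members are known for setting cell fate in blood, brain and germ line. Their genes were taken here as every gene name made of Zbtb followed by a number, which gave 42 of 35976 gene names and 242 of 114412 transcripts in the deposited table. 2 of the 42 match by name alone: Zbtb8os encodes archease, a cofactor of tRNA ligation with neither a BTB domain nor zinc fingers, and Zbtb11os1 is a noncoding RNA read from the strand opposite Zbtb11.

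The libraries were strand-specific polyA RNA-seq of whole ovaries from C57BL/6J mouse embryos at E15.5, where E stands for the embryonic day. In the 3 panobinostat (PB) pools the pregnant mothers were given PB, which inhibits histone deacetylases, by oral gavage at 5 mg/kg from E6.5 to E15.5, and in the 3 control pools they had received the vehicle, DMSO and water. Both groups were wild-type embryos of the same strain and age. The sample labels describe the dose as daily and the methods as given every other day, and the number of ovaries in a pool is 4 in the labels, 6 to 8 in the design text and at least 8 in the methods, so neither is settled here. The design text also words all 6 libraries, controls included, as from exposed mice, and the groups were taken from the sample titles.

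The pools held 97165644 to 125985399 counts, of which the ZBTB genes took 0.125% to 0.128% in control and 0.130% to 0.136% in PB. These shares are of all counts, red cell RNA included, without scaling between libraries. Their difference was not tested, so they do not show a change of the family. Markers of germ cells and of pregranulosa cells, the supporting cells of the fetal ovary, were present in all 6 pools, with summed levels of 502 to 895 and of 605 to 697 CPM (counts scaled to the size of the library). Of the 7 germ cell markers, 2 were lower in PB at an unadjusted p under 0.05 in edgeR, Pou5f1 (log2 fold change -0.58) and Dppa3 (-0.52), beside 2.43% of all genes. The other germ cell markers were at -0.082 (Stra8), -0.036 (Ddx4), -0.0031 (Dazl), 0.25 (Mael) and 0.34 (Sycp3). The pools are mixtures of cells, so fewer cells of a type and less RNA per cell cannot be told apart in any value below.

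All 42 genes were expressed above the filter on low counts. Per length, in TPM (the share of a transcript after its counts are divided by its exon length), their median was 11.2 TPM against 7.79 TPM over all genes tested, and the highest was 33.1 times the lowest. Zbtb12 was at the top with 36.7 TPM (33.9 to 38.7 over the 6 pools), followed by the archease gene Zbtb8os with 31.5 TPM (30.1 to 33.5), just below that range. Zbtb7c, a relative of the repressor gene Zbtb7a, came next with 27.3 TPM (23.7 to 30.3), reaching into the range of Zbtb8os, then Zbtb22 with 21.3 TPM (19.6 to 22.7) and Zbtb7a with 20.3 TPM (16.2 to 23.4). The ranges of Zbtb22 and Zbtb7a overlap, and the range of Zbtb22 stays below that of Zbtb7c.

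The lowest level belonged to Zbtb16, with 1.11 TPM (1.01 to 1.22). It encodes PLZF, which keeps spermatogonial stem cells of the testis in self-renewal. Zbtb32, a lymphocyte factor close to PLZF, lay next at 1.39 TPM (0.981 to 1.83), a range that spans that of Zbtb16. Zbtb42 had 2.06 TPM (1.70 to 2.43), Zbtb20 had 2.39 TPM (1.76 to 2.83) and Zbtb49 had 3.77 TPM (3.13 to 4.77). The ranges of Zbtb32, Zbtb42 and Zbtb20 overlap in turn, and Zbtb49 lies above them. Zbtb20 is annotated with 51 transcripts, the most of any of these genes, some of them very long, which lowers its level per length. The other 32 genes lay between these ends.

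**Figure D1:**
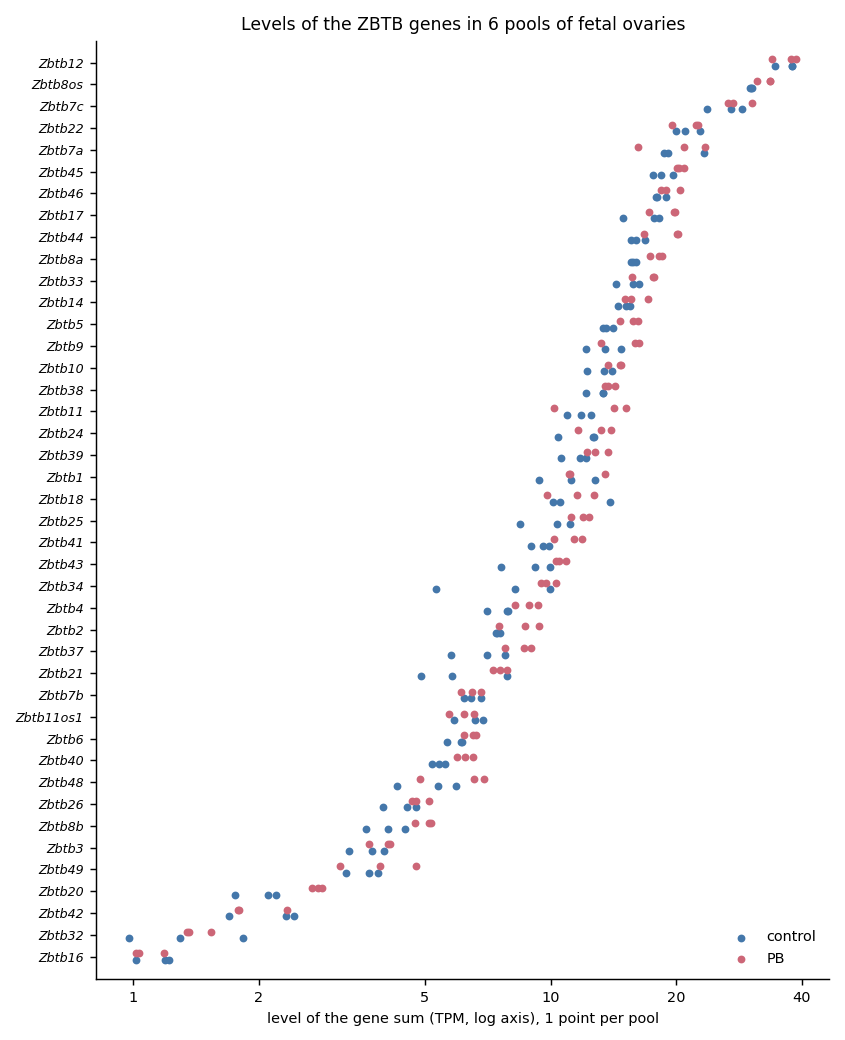
Level of each of the 42 ZBTB genes (rows, ordered by mean) in TPM on a log axis, 1 point per pool, with control pools in blue and PB pools in red. The points of a gene lie close together compared with the distance from Zbtb16 at 1.11 TPM to Zbtb12 at 36.7 TPM.

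The comparison of PB with control pools asks whether the RNA of these genes differed in the fetal ovary after PB, an inhibitor of histone deacetylases. On gene sums, the counts of all transcripts with the same gene name added together, none of the 42 genes passed a fold change of 2 with a false discovery rate (FDR) of 0.05 in edgeR's quasi-likelihood test, where 0.0154% of all 19437 genes did. The lowest FDR among them was 0.888. Without adjustment 3 had p under 0.05, or 7.14% against 4.47% of all genes. All 3 were higher in PB, where 2.03% of all genes were higher and 2.43% lower at that p. DESeq2's Wald test also called none, beside 0.0414% of all genes, and found 3 at an unadjusted p under 0.05, where 3.64% of the 26586 genes it tested were.

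The changes were small and their intervals narrow. Values ran from -0.24 for Zbtb42 to 0.38 for Zbtb20 on the log2 scale, with a median of 0.02 beside 0.00 over all genes. The median size of the change, without regard to sign, was 0.08 for the ZBTB genes and 0.10 for all genes. In 34 of the 42 the mean differed by under 10%. Every one of the 42 intervals (95%, from the fit) lay within a change of 2-fold either way, from -0.62 at the lowest bound to 0.73 at the highest, and 38 lay within 1.5-fold. PB was higher in 26 genes and lower in 16, or 61.9% higher beside 50.7% of all genes.

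**Figure D2:**
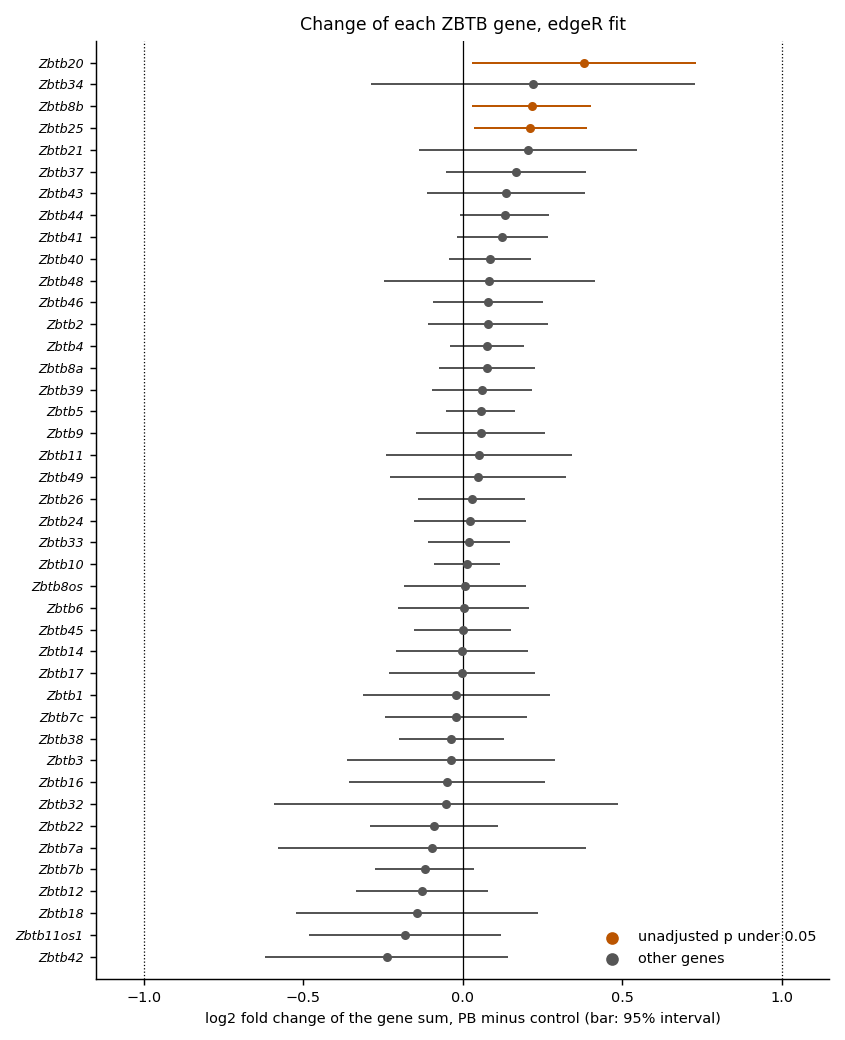
Log2 fold change of each gene sum, PB minus control, from the edgeR fit, with its 95% interval as a bar; dotted lines mark a 2-fold change. The 3 genes in orange (Zbtb20, Zbtb8b and Zbtb25) have an unadjusted p under 0.05, and no bar reaches a dotted line.

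The 3 genes with the lowest p, Zbtb25, Zbtb8b and Zbtb20, were each higher in every PB pool than in any control pool. Zbtb25, whose protein acts in T lymphocytes, had 18.2, 16.8 and 18.6 CPM in control and 19.9, 22.2 and 20.02 CPM in PB. Its log2 fold change was 0.21 (SE 0.073, interval 0.037 to 0.39, edgeR FDR 0.888). Of its counts, 23.9% lay in 1 unspliced transcript assembled from the reads (MSTRG.4055.1), at chr12:76344362-76348485 beside the 3′ end of the annotated gene. With transcripts that match RefSeq alone the log2 fold change was 0.19, no longer at an unadjusted p under 0.05.

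Zbtb25 lies head to head with Zbtb1, a factor needed for lymphocyte development: their outermost annotated transcripts overlap by 25 bases on opposite strands of chromosome 12. Zbtb1 had 25.7, 32.1 and 33.4 CPM in control and 33.4, 29.1 and 27.4 CPM in PB, with overlapping groups and a log2 fold change of -0.02 (interval -0.31 to 0.27). The window below runs from 250 bases before to 50 bases after the upstream RefSeq start of Zbtb25 (GRCm38.p6, the assembly known as mm10). It is shown because this gene had the lowest p. It holds 44 CG pairs and 1 GC box (GGGCGG, in capitals). Another RefSeq start of the gene lies downstream at chr12:76369464, and its window holds 51 CG pairs.
Zbtb25 promoter (chr12:76369511-76369810, minus strand): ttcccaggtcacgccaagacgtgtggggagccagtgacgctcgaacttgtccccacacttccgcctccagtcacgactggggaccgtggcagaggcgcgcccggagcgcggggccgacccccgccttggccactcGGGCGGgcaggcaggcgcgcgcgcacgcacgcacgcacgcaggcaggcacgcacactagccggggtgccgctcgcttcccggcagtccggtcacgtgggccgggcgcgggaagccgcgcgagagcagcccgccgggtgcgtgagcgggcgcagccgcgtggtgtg

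Zbtb8b, of no settled function, was measured at 10.8, 12.2 and 10.7 CPM in control and 12.8, 13.2 and 13.2 CPM in PB pools. The log2 fold change was 0.22 (SE 0.077, interval 0.034 to 0.40, edgeR FDR 0.888). With 1 pool left out it ran from 0.18 to 0.27, and only 1 of these edgeR fits gave an unadjusted p under 0.05. Its neighbours on chromosome 4 within 100000 bases differed less: Zbtb8a had 24.1 ± 1.35 CPM in control and 25.4 ± 0.339 CPM in PB (SD, n = 3), and Zbtb8os had 14.0 ± 0.655 and 14.0 ± 0.968 CPM. The differences between the changes of these neighbours were not tested.

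Zbtb20, a repressor of fetal liver genes that also shapes the hippocampus, showed the largest change of the 42. The control pools held 38.8, 40.3 and 27.7 CPM and the PB pools 43.9, 49.99 and 45.3 CPM, so control 3 was the low pool. The log2 fold change was 0.38 (SE 0.145, interval 0.033 to 0.73, edgeR FDR 0.888), and 0.22 without control 3. Control 3 also had the least red cell RNA, with summed globin and Alas2 levels of 10376 CPM against 15841 to 27231 CPM in the other pools, and the part of blood in this value was not tested. Zbtb20 also shares its strand with Mir568 and BC002163, so reads of these genes could have been counted with it.

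**Figure D3:**
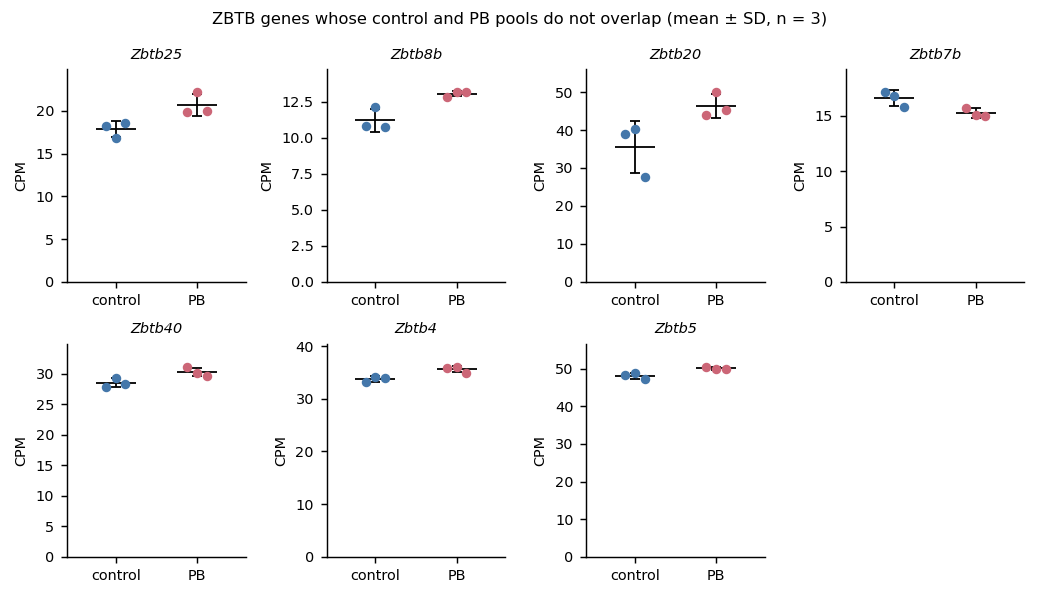
CPM of the 7 ZBTB genes whose 3 control pools (blue) and 3 PB pools (red) do not overlap, with mean and SD (n = 3) in black; each axis starts at 0. 6 genes are higher in PB and Zbtb7b is lower, and Zbtb4, Zbtb5 and Zbtb40 are 3.98% to 6.13% higher in the fit.

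Groups did not overlap in 7 of the 42 genes, or 16.7%, where 10.7% of all genes had such groups. 6 of them were higher in PB and 1 was lower, beside 5.1% and 5.62% of all genes. The higher ones were the 3 above and Zbtb4, Zbtb5 and Zbtb40. Zbtb5 had 48.2 ± 0.824 CPM in control and 50.1 ± 0.315 CPM in PB (SD, n = 3). Zbtb40 had 28.5 ± 0.776 and 30.3 ± 0.734 CPM. These are tight groups with little between them, and neither gene reached an unadjusted p of 0.05 in edgeR. The 1 gene lower in PB was Zbtb7b, with 17.2, 16.8 and 15.8 CPM in control and 15.8, 15.1 and 14.99 CPM in PB (log2 fold change -0.12, interval -0.27 to 0.033), where control 3 and PB 1 nearly touch.

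The readers of methylated DNA differed little between the groups. Zbtb33 encodes Kaiso and, with Zbtb4 and Zbtb38, makes up the group of ZBTB proteins known to bind methylated CpG sites. Zbtb33 had 55.6, 52.3 and 52.2 CPM in control and 55.0, 52.2 and 55.1 CPM in PB, with a log2 fold change of 0.02 (interval -0.10 to 0.14). Zbtb4 had 33.1, 34.2 and 34.0 CPM in control and 35.8, 36.0 and 35.0 CPM in PB, 0.08 higher on the log2 scale (interval -0.04 to 0.19). Zbtb38 had 31.2, 30.3 and 31.1 CPM in control and 29.1, 32.6 and 28.6 CPM in PB (-0.04, interval -0.20 to 0.12). For Zbtb38, 38.0% of the counts came from 1 assembled transcript beside its annotated end, and the change was -0.097 with RefSeq transcripts alone. Zbtb38 also shares its strand with E030011O05Rik, so reads of that gene could have been counted with it. Zbtb24, which maintains DNA methylation and is mutated in an immunodeficiency with centromere instability, had 22.7 ± 1.34 and 23.0 ± 1.26 CPM (SD, n = 3), a log2 fold change of 0.02.

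Among the factors of cell growth and telomeres the groups overlapped. Zbtb17 encodes Miz-1, which pairs with MYC to repress inhibitors of the cell cycle, and its levels were 41.4, 36.3 and 38.8 CPM in control and 41.4, 33.9 and 41.0 CPM in PB. Zbtb10, a repressor that competes with SP1 at GC-rich sites, was steady, with 68.0, 67.9 and 68.1 CPM in PB and 67.8, 66.2 and 68.4 CPM in control. Zbtb48, whose protein binds telomeres and trims them, had 8.52 ± 1.23 and 9.02 ± 0.952 CPM (SD, n = 3). The log2 fold changes of Zbtb17, Zbtb10 and Zbtb48 were -0.0029, 0.01 and 0.08.

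The groups of Zbtb16, Zbtb18, Zbtb46 and Zbtb32 overlapped too, while those of Zbtb7b and Zbtb20 (above) did not. Zbtb16 had 5.68, 5.82 and 5.08 CPM in control and 4.97, 6.14 and 4.91 CPM in PB, a log2 fold change of -0.05 (interval -0.35 to 0.25). Zbtb18, a repressor of the developing cortex, had 28.1, 40.1 and 28.7 CPM in control and 29.3, 26.0 and 32.5 CPM in PB (-0.14, interval -0.52 to 0.23). The high value of Zbtb18 in control 2 came with 1 transcript, XM_006496893.1, that held 1719 counts there and 2 in each other pool. With RefSeq transcripts alone the change of Zbtb18 was -0.53, not at an unadjusted p under 0.05 in edgeR. Zbtb46, known from dendritic cells and from endothelium, had 49.8, 49.8 and 46.9 CPM in control and 56.3, 50.2 and 48.3 CPM in PB (0.08, interval -0.09 to 0.25). The endothelial markers summed to 282 to 321 CPM in these pools and those of macrophages and dendritic cells to 25.5 to 31.9 CPM, with the dendritic marker Itgax too low to be tested. Zbtb32 had 1.43 to 2.47 CPM over the 6 pools, so its interval was wide, from -0.59 to 0.48.

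Zbtb7a encodes LRF, a repressor of embryonic globin genes, and it varied more between pools than between groups. It had 70.7, 92.9 and 67.4 CPM in control and 70.7, 90.2 and 55.0 CPM in PB, with a log2 fold change of -0.10 (interval -0.58 to 0.38). The high pools were control 2 and PB 2. In these 2 pools the 7 germ cell markers summed to 585 and 502 CPM, the lowest of the 6, against 784 to 895 CPM in the others, and the part of cell composition in the level of Zbtb7a was not tested. With RefSeq transcripts alone the change was -0.38, still not at an unadjusted p under 0.05 in edgeR. An assembled transcript held 3918 counts of Zbtb7a in PB 2 and none in any other pool. Zbtb7c had 74.9 to 89.6 CPM in the 3 PB samples and 76.5 to 86.3 CPM in the controls, and its sign turned from -0.02 to 0.07 with RefSeq transcripts alone.

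After the 3 genes with the lowest p came Zbtb44, Zbtb41, Zbtb7b (above) and Zbtb37. Zbtb44 had 98.9 ± 2.24 CPM in control and 108 ± 6.55 CPM in PB (SD, n = 3), with a log2 fold change of 0.13 (interval -0.0053 to 0.27). Zbtb41 had 57.3 ± 2.19 and 62.4 ± 3.23 CPM (0.12, interval -0.016 to 0.26), and Zbtb37 had 15.9 ± 1.73 and 17.8 ± 0.478 CPM (0.17, interval -0.050 to 0.38). In each of the 3 genes PB 2 lay inside the control range and the other PB pools above it. Zbtb42, a relative of Zbtb18 known from muscle, had the lowest log2 fold change, with 5.53, 4.37 and 5.62 CPM against 3.86, 4.18 and 5.09 CPM (-0.24, interval -0.62 to 0.14). The abundant genes Zbtb12 and Zbtb22 had log2 fold changes of -0.13 (interval -0.33 to 0.08) and -0.09 (interval -0.29 to 0.11), and Zbtb49 had 0.05 (interval -0.23 to 0.32). With RefSeq transcripts alone Zbtb12 was at -0.084 and Zbtb22 at -0.0061. For the genes not described elsewhere (Zbtb2, Zbtb3, Zbtb9, Zbtb21, Zbtb39 and Zbtb45) the groups overlapped, with values from -0.038 to 0.21 and intervals that all include 0.

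Some of these genes lie close together. The 42 genes spread over 15 chromosomes, and 11 have another within 100000 bases. Zbtb34 and Zbtb43 are neighbours on chromosome 2, on the same strand and 18962 bases apart. Zbtb34 had 23.5 CPM in control 1 against 38.8 to 42.8 CPM in the other 5 pools, and Zbtb43 had 26.4 CPM in control 1 against 33.2 to 35.0 CPM. Zbtb6 and Zbtb26, also on chromosome 2 and 1248 bases apart, showed no such pool, with 17.3 to 20.2 CPM and 15.2 to 16.7 CPM. Zbtb11 and its opposite-strand RNA Zbtb11os1 overlap by 1345 bases. Their changes were 0.05 (interval -0.24 to 0.34) and -0.18 (interval -0.48 to 0.12) on the log2 scale, and the libraries keep the strand. The low control 1 values of Zbtb34 and Zbtb43 were picked out after they were seen. They are not particular to that pair, since Zbtb1 on chromosome 12 was also lowest in control 1 (25.7 against 27.4 to 33.4 CPM).

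Single transcripts differed far more than gene sums. StringTie divides the reads of a gene among its transcripts, and for lowly covered or similar transcripts that division can shift between pools. The typical spread between replicate pools, edgeR's biological coefficient of variation, was 98.4% for transcripts and 21.0% for gene sums. Of the 242 ZBTB transcripts 222 had a count, and 97 of these, or 43.7%, had none in at least 1 pool. Among the 158 that passed the filter, 39 differed by 2-fold or more, which is 24.7% beside 20.1% of all transcripts tested, and 66 of 158 went against the sign of their gene sum. Absent counts and opposite signs were not counted over all transcripts, so neither can be called particular to the ZBTB genes. No ZBTB transcript passed the thresholds in edgeR, where 0.0332% of 51227 did, and the lowest FDR was 0.197. Without adjustment 8 had p under 0.05, or 5.06% beside 3.56%, of which 2 were higher and 6 lower in PB, where 1.85% and 1.71% of all transcripts were.

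**Figure D4:**
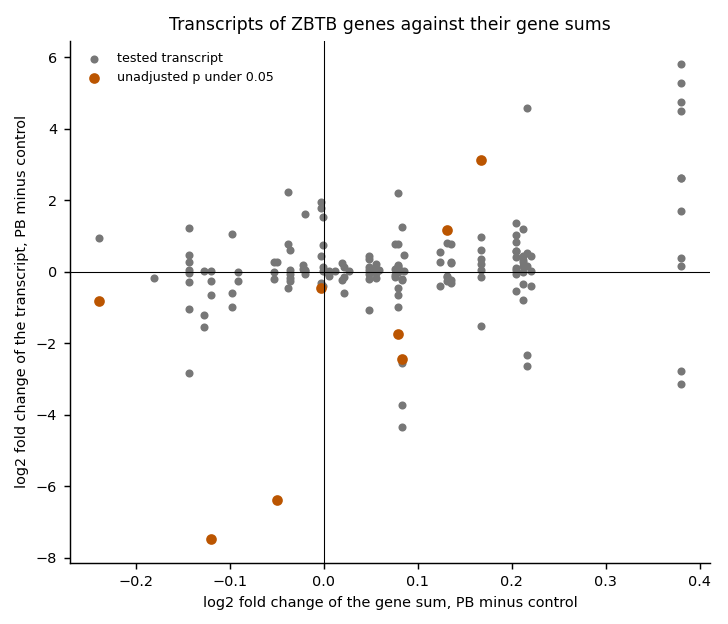
Log2 fold change (PB minus control) of the 158 tested ZBTB transcripts on the vertical axis against that of their gene sum on the horizontal axis, 1 point per transcript, with the 8 at an unadjusted p under 0.05 in orange. The gene sums span -0.24 to 0.38 while 39 transcripts differ by 2-fold or more, the lowest at -7.47.

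DESeq2's Wald test, which the study used, called 5 ZBTB transcripts of 5 genes, all lower in PB. They are 2.69% of the 186 it tested, beside 1.61% of all 72572, and 19 of the 186 had an unadjusted p under 0.05, beside 7.17% of all. The transcript with the lowest p in both tests belongs to Zbtb7b, which encodes ThPOK, the factor that directs helper T cell fate. XM_006501316.2 held 133, 147 and 127 counts in control, against 1, 0 and 1 in PB. Summed over pools this is 209 times lower (interval 57.4 to 1729, counting error only), with a log2 fold change of -7.47 (SE 0.92). The FDR was 0.197 in edgeR and 7.80e-11 in DESeq2.

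This transcript differs from the rest of Zbtb7b at its 5′ end. Its first exon of 46 bases lies at chr3:89393294-89393339 (mm10, minus strand), while those of NM_009565.4 and XM_006501314.2, the most abundant ones, lie at chr3:89393035-89393203 and chr3:89393477-89393630. It held 7.89%, 7.48% and 8.53% of the Zbtb7b counts in control and at most 0.064% in PB. XM_006501313.2, whose first exon at chr3:89393311-89393378 overlaps it, had 0 in all controls and 186, 0 and 65 counts in PB. NM_009565.4 itself had 1164, 1095 and 949 counts in control and 814, 1073 and 1538 in PB (log2 fold change 0.033, interval -0.56 to 0.62). Beside these shifts the change of the gene sum was -7.97%. Reads across the splice junctions of these first exons were not examined. Whether the starts changed or StringTie divided the reads otherwise among similar transcripts was not tested.

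A RefSeq promoter window of Zbtb7b is shown because it spans the starts of XM_006501313.2 and XM_006501316.2. Its start site is the 5′ end of XM_006501313.2, and that of XM_006501316.2 lies 39 bases further on. The starts of NM_009565.4 and XM_006501314.2 lie outside this window, and the gene has another RefSeq window further downstream. Capitals mark 3 GC boxes (GGGCGG) and 1 CCAAT box, here on the other strand as ATTGG and running into the first GC box.
Zbtb7b promoter (chr3:89393329-89393628, minus strand): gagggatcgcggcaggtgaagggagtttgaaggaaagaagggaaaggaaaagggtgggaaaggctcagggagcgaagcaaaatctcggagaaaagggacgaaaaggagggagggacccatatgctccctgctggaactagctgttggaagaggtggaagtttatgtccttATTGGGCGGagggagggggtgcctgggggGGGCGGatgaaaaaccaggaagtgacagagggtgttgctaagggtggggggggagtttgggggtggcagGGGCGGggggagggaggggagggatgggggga

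Zbtb16 showed the same kind of pattern with more spread. NM_001033324.2 had 142, 210 and 18 counts in control and 0, 3 and 1 in PB, so control 3 stood close to the PB pools. The sums are 370 against 4 counts, 94.8 times lower in PB (interval 36.7 to 350, counting error only), with an FDR of 0.803 in edgeR and 0.000367 in DESeq2, which called it. The other transcript, XM_006510258.2, had 416, 469 and 460 counts in control and 493, 624 and 570 in PB (log2 fold change 0.29, interval -0.23 to 0.80). Their first exons lie 5′ at chr9:48835788-48835945 and chr9:48836054-48836381. NM_001033324.2 thus held 25.4%, 30.9% and 3.77% of the gene in control and at most 0.478% in PB. Junction reads of Zbtb16 were not examined either. Whether its start or the division of its reads changed was not tested.

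In Zbtb46 the called transcript was a minor one. NM_027656.2 had 37, 61 and 30 counts in control and 13, 14 and 11 in PB (log2 fold change -1.74, SE 0.38, FDR 0.657 in edgeR and 0.0035 in DESeq2), and it made up 0.528% of the counts of the gene. It starts at chr2:181424388 in an exon downstream of the starts of the other 9. The window before this start is the 1 RefSeq promoter given for Zbtb46 and is shown for that reason. The main transcripts begin 35038 bases or more upstream of it. The window holds 1 CG pair and none of the motifs searched, and the bases at its end are those of the transcript.
Zbtb46 promoter (chr2:181424339-181424638, minus strand): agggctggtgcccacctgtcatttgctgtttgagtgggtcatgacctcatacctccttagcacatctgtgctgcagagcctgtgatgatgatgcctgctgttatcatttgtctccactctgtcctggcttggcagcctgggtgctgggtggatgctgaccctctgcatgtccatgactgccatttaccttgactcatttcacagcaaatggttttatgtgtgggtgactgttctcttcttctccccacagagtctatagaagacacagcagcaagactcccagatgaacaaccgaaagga

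Zbtb48 and Zbtb34 gave the other 2 called transcripts. XM_006538451.2 of Zbtb48 had 30, 62 and 21 counts in control and 6, 3 and 12 in PB (log2 fold change -2.43, FDR 0.982 in edgeR and 0.0298 in DESeq2). The most abundant Zbtb48 transcript, NM_133879.2, went the other way, with 177, 503 and 176 counts in control and 760, 319 and 943 in PB (1.25, interval -0.20 to 2.69), and its groups overlap. XM_006498041.3 of Zbtb34 had 139, 2 and 142 counts in control and 0 in every PB pool. It did not pass the filter for edgeR, and with a floor of 3 counts per library it was at least 34.3-fold lower in PB (DESeq2 FDR 0.0136), though control 2 held no more than the floor.

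**Figure D5:**
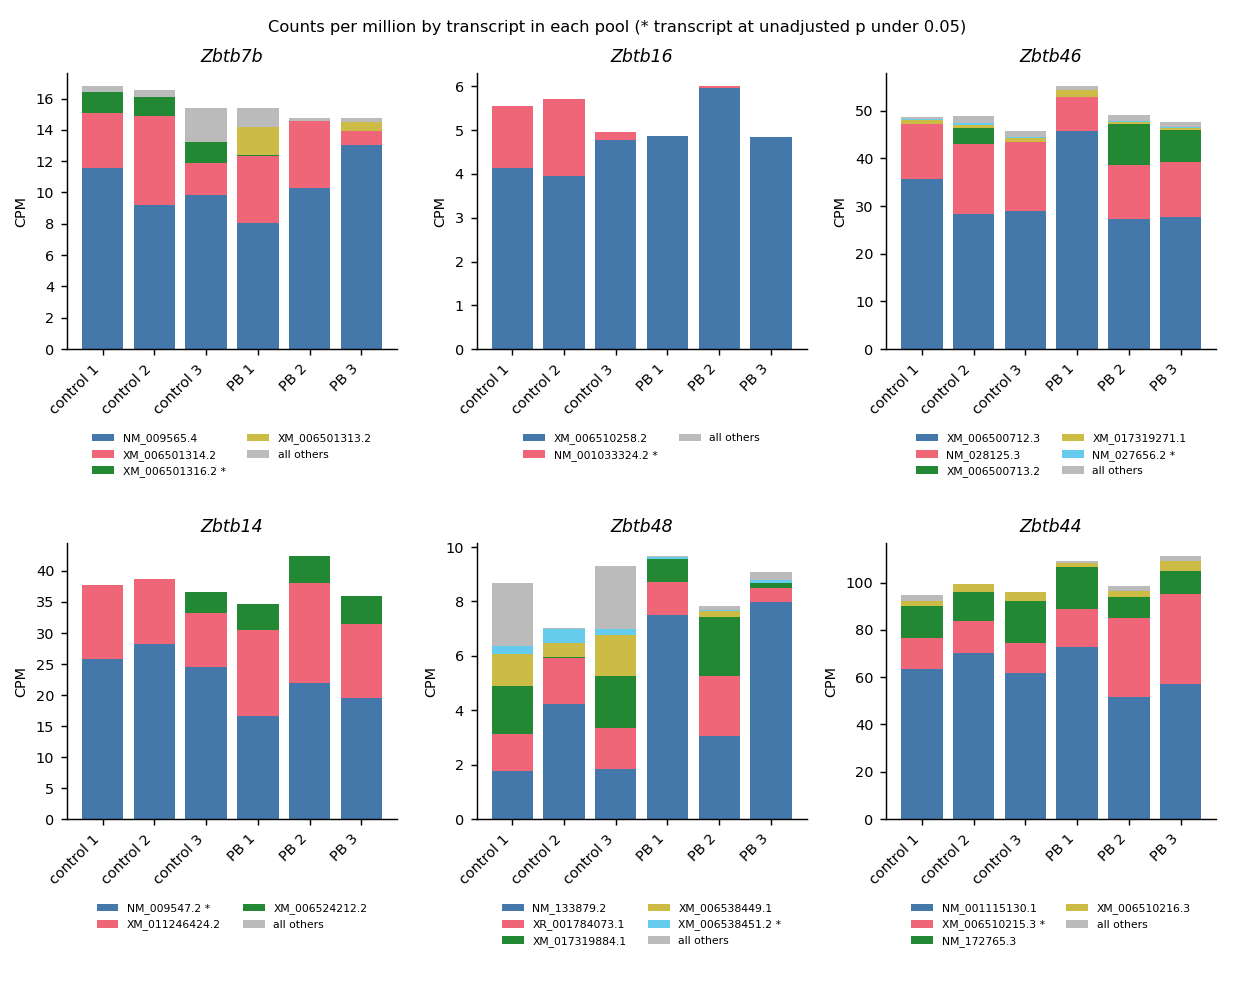
CPM of the transcripts of 6 ZBTB genes in each pool, stacked, with the 4 most abundant transcripts and the 1 marked by a star in colour and all others in grey; the star marks an unadjusted p under 0.05 in edgeR. The bars of a gene have like heights in both groups while the colours shift, as for Zbtb16, where the red share is large in control 1 and control 2 and at most a sliver in PB.

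Of the 8 transcripts at an unadjusted p under 0.05 in edgeR, 4 more belong to Zbtb14, Zbtb44, Zbtb37 and Zbtb42, and all but that of Zbtb37 carry much of their gene. In Zbtb14, a repressor of GC-rich promoters, NM_009547.2 had 2595, 3342 and 2373 counts in control and 1681, 2285 and 2298 in PB (log2 fold change -0.44, interval -0.80 to -0.081). It held 67.3% to 72.6% of the gene in control and 47.8% to 54.1% in PB, without overlap. XM_011246424.2, with a first exon upstream at chr17:69382302-69383269, had 1198, 1261 and 829 counts in control and 1403, 1688 and 1419 in PB (0.43, interval -0.070 to 0.94). XM_006524212.2, with its first exon at chr17:69383310-69383420, had 0, 1 and 326 counts in control and 435, 454 and 530 in PB. The gene sum was 38.5 ± 1.02 and 38.4 ± 4.25 CPM (SD, n = 3).

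In Zbtb44 the transcript XM_006510215.3 had 1302, 1606 and 1222 counts in control and 1634, 3476 and 4481 in PB (log2 fold change 1.16, interval 0.29 to 2.02). Its share was 13.2% to 13.7% in control and 14.8%, 33.8% and 34.2% in PB, so PB 1 lay near the controls. XM_006496841.3 of Zbtb37 had 3, 7 and 7 counts in control and 98, 12 and 43 in PB (3.14, interval 0.77 to 5.50). The main Zbtb42 transcript, XM_006516052.3, had 301, 509 and 459 counts in control and 206, 234 and 305 in PB, where control 1 (301) and PB 3 (305) come from libraries of unequal depth (-0.81, interval -1.51 to -0.11). Of all 158 tested transcripts, 18 had groups that did not overlap in CPM, or 11.4% beside 9.95% of all, with 10 higher and 8 lower in PB, beside 4.92% and 5.03% of all.

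The remaining 7 of the 15 transcripts with the lowest p did not reach an unadjusted p of 0.05 in edgeR. They were XM_006539802.1 of Zbtb45, NM_133879.2, XM_011246424.2, XM_006522410.3 of Zbtb20, NM_173424.3 of Zbtb37, XM_011240481.2 of Zbtb8b and XM_006538727.1 of Zbtb17. DESeq2 gave an unadjusted p under 0.05 for 3 of them, NM_173424.3, XM_006522410.3 and XM_011240481.2. XM_011240481.2 had 41, 0 and 0 counts in control and 315, 439 and 300 in PB (log2 fold change 4.59, interval -1.19 to 10.4). XM_006538727.1 and XM_006522410.3 rested on PB 2, with 2413 and 223 counts there against 263 to 494 and 11 to 24 in the other pools.

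Which transcript led a gene often depended on the pool. Of the 36 genes with more than 1 counted transcript, the same one was on top in all 6 pools in 18 and a different one in at least 1 pool in 18, and 6 genes had 3 or more leaders. PB 2 stood apart in several of them. NM_010731.3 held 70.5% to 81.6% of Zbtb7a in 5 pools and 16.3% in PB 2, and NM_009541.2 held 89.6% to 93.6% of Zbtb17 in 5 pools and 30.4% in PB 2. In Zbtb20 the leading transcript XM_017317089.1 held 77.7% of the counts in control 1 and none in PB 2. How often the leader changes was not counted for other genes.

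Assembled transcripts that match no RefSeq model held a small share of the ZBTB counts. There were 13 of them in 10 genes, and they took 4.89 ± 0.823% of the counts in control and 5.28 ± 1.70% in PB (SD, n = 3). The difference was 0.39 percentage points (exact permutation test over pools, two-sided, p = 0.9, where 0.1 is the smallest possible). By gene the share was largest in Zbtb18 with 52.0%, Zbtb38 with 38.0%, Zbtb22 with 34.5% and Zbtb25 with 23.9%.

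Promoters of the ZBTB genes were rich in CG pairs. RefSeq windows of 300 bases, 250 before and 50 after the start, were given for 37 of the 42 genes, 50 windows in all. They held a median of 24.5 CG pairs, with 7 in all 32851 windows and 17 in those of the genes tested, and the extremes were 1 and 56. The GC box GGGCGG, searched on both strands, was in 68% of the ZBTB windows, 35.7% of all and 54.8% of those of tested genes. The CCAAT box was in 32%, 37.4% and 37.3%, and TATAAA was in 12%, 13.6% and 8.23%. A CCAAT and a GC box can share letters, as in the Zbtb7b window, and these matches describe the letters alone.

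Related genes gave no call either. Among all genes tested in edgeR, 0.0154% were called, 4.47% had an unadjusted p under 0.05 and 50.7% were higher in PB. At these shares, none in a list of 5 to 21 genes says little about its members. The 7 BTB zinc-finger genes without a Zbtb symbol (Bcl6, Bcl6b, Hic1, Hic2, Patz1, Zfp131 and Gzf1) had none called and none at an unadjusted p under 0.05 in edgeR, with 3 higher and 4 lower. Of 21 genes for partners of these proteins, such as the corepressors Ncor1 and Bcor, the deacetylases Hdac1 to Hdac3 and the ubiquitin ligase scaffold Cul3, none was called and none had p under 0.05. 12 were higher and 9 lower, with a median log2 fold change of 0.016. The largest value was that of the deacetylase gene Hdac5, 1.44, which rested on PB 3 with 85.5 CPM against 10.1 to 14.2 CPM in the other pools. Of 5 known targets, the cell cycle inhibitors Cdkn1a and Cdkn2b of Miz-1 and the embryonic globins Hbb-y, Hbb-bh1 and Hba-x of LRF, none was called or had p under 0.05. 1 of the 5 was higher and 4 were lower in PB.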

How the data were processed

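RNA of ovary pools was sequenced as strand-specific paired-end libraries. Per the methods and the submitters' processing notes, reads were aligned to mm10 with HISAT2 2.1.0, transcripts were assembled and merged on RefSeq with StringTie 1.3.5, and counts were made with prepDE, which derives whole counts from coverage. The authors deposited the transcript counts used here. Their table also holds 6 columns of normalized values and their log2 fold changes, SE, p and adjusted p, none of which was used.

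Counts were summed by gene name. 1490 transcripts without a name stayed out of gene sums and held 3.05% to 4.49% of the counts. Both levels were fitted over all features with edgeR 4.0.16 (TMM, filterByExpr with a minimum count of 10 and total of 15, quasi-likelihood F-test, Benjamini-Hochberg adjustment), calling at a fold change of 2 and an FDR of 0.05. DESeq2 1.42.0, the tool of the study (1.30.0), was an alternative. CPM use TMM-scaled library sizes and TPM use exon lengths. The main edgeR fit was run on simulated data for gene sums and for transcripts, and DESeq2 and the other alternatives were not. Totals of 97165644 to 125985399 counts put 3 counts, the floor used, at 0.0257 to 0.0319 CPM. Intervals on counts cover counting error only. The methods give separate litters for most experiments without naming these libraries, so p-values measure the spread between pools.

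The genes and lists were chosen with earlier results of these data known. Named are the 10 genes with the lowest p, the 5 highest and 5 lowest per length, 16 of known role, the 15 transcripts with the lowest p and those at or under 3 counts in 1 group and above 10 in the other. Other genes named with values (Zbtb1, Zbtb5, Zbtb6, Zbtb8a, Zbtb11, Zbtb11os1, Zbtb14, Zbtb26, Zbtb34 and Zbtb43, and XM_006498041.3) were chosen after their values were seen.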

Additional observations from a re-analysis of the deposited data

How the results depend on the processing

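No ZBTB gene sum was called under any alternative (DESeq2 size factors or Wald test, no filter or a stricter one, FDR alone, RefSeq transcripts, sums by StringTie locus, the replicate number as a block, or leaving out 1 pool). ZBTB transcripts called were 0 under all of these that apply but DESeq2's Wald test, which called 5. Gene sums at an unadjusted p under 0.05 were 1 with RefSeq transcripts alone and 1 to 4 when 1 pool was left out, with 1 without PB 1 or without PB 3. Transcripts at that p were 19 with DESeq2, 5 with the replicate block and 8 to 12 with 1 pool left out. Of all features tested, 4.47% of genes and 3.56% of transcripts had such a p in the main edgeR fit. In DESeq2 these shares were 3.64% and 7.17%. They were not taken for the other alternatives, so those counts have no share of all features beside them. The median log2 fold change ran from 0.0079 (without PB 1) to 0.0516 (without PB 2). The difference in assembled share ran from -0.59 percentage points without PB 2 to 0.90 without PB 1.

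Signs near 0 turned with 1 pool left out, as log2 fold changes: Zbtb7a -0.29 to 0.0626, Zbtb7c -0.12 to 0.0295, Zbtb8os -0.0456 to 0.0539, Zbtb10 -0.0049 to 0.0165, Zbtb16 -0.16 to 0.00631, Zbtb17 -0.0581 to 0.0845, Zbtb18 -0.24 to 0.0398, Zbtb24 -0.0283 to 0.0604, Zbtb32 -0.22 to 0.18, Zbtb33 -0.0017 to 0.0485, Zbtb38 -0.10 to 0.00051, Zbtb48 -0.0305 to 0.17, Zbtb49 -0.0302 to 0.11. Zbtb7c was 0.0663 with RefSeq transcripts alone. The other 13 of 26 named genes and all 15 named transcripts kept their sign, and for the named features DESeq2 added calls on 4 transcripts. The cause of these changes was not tested. Same-numbered pools deviated together with correlations of 0.093, 0.147 and -0.018, so the numbers were not taken as pairs, and the block left 0 calls and 2 gene sums at p under 0.05. 3 pools a group and the spread of single transcripts limit what could be detected.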
